A study of Mus musculus with 14 samples.

Results

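This account covers 9 mouse genes that were picked because their transcripts were read in Ly6D+ common lymphoid progenitors (CLP) and are named as shut off in ProB cells: Gfra2, Pdgfrb, Ptger2, Sema3d, St8sia1, Rskr, Nhsl1, Mpeg1 and Gm4047. They are 9 of 18193 genes measured, and 22 of the 45101 probe sets on the array carry their symbols. All 22 are described. They were chosen by their measured signals, high in Ly6D+ CLP and low in ProB cells, so the values in those groups are given as a description with no test. The values go against the description for Gfra2, whose bright probe sets read as high in ProB as in Ly6D+ CLP. Mpeg1 was low in ProB but not at the lower limit of the scale there.

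The study measured gene expression on 14 Affymetrix arrays in sorted bone marrow cells of C57Bl6 mice aged 8 to 12 weeks. Pax5KO engrafted cells (3 arrays) and WT engrafted cells (3 arrays) grew in sublethally irradiated hosts from Pax5KO or WT fetal liver taken at embryonic day 15. Both kinds of donor carried a reporter for λ5, and after 4 weeks the B220+ cells positive for it were sorted from the marrow. Mice without a transplant gave 4 stages with 2 arrays each: Ly6D- CLP, Ly6D+ CLP, ProB and PreB. The titles call the arrays biological replicates, and whether animals were pooled is not stated. The part of Pax5 that the knockout lacks and the sort gates behind the stage names are also not stated in the labels, nor is any marker that separates donor from host cells. The engrafted cells thus differ from the others in origin (fetal liver against adult marrow), in the irradiated host and in the reporter gate, and those differences cannot be told apart between the engrafted groups and the stages.

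CLP are marrow cells that can still give rise to B, T, NK and some dendritic cells. Gain of the surface protein Ly6D marks the CLP that are turning to the B lineage, and the ProB and PreB stages that follow carry out heavy chain and light chain gene rearrangement. Pax5 holds cells in the B lineage: it turns on B cell genes and keeps off genes of other lineages, and ProB cells without it keep a wider developmental potential.

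Each value below is a log2 signal. The scale runs from 2.32 to 16.1, and the lowest value is a floor. The text calls a group at the floor if none of its arrays exceeded the lowest value by more than 0.5, above the floor if all of them did, and mixed otherwise. Where 1 group of a comparison is at the floor, the log2 difference is a lower bound of the change, and none is given between groups that are both at the floor. In sorted bulk cells, fewer cells with a transcript and less transcript per cell cannot be told apart.

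Pax5 itself read 7.95, 7.92 and 7.57 on the Pax5KO arrays, and 6.76, 6.18 and 6.60 on the WT engrafted arrays. With the deleted part not stated, its probe set checks nothing about the labels. The labelled stages were checked by their defining genes. Flt3, the growth factor receptor of early progenitors, read 12.29 to 12.49 in Ly6D- CLP and 11.91 to 12.33 in Ly6D+ CLP, against 5.16 to 5.99 in ProB and 5.62 to 5.94 in PreB. Ly6d read 3.02 and 3.61 in Ly6D- CLP and 10.30 and 11.25 in Ly6D+ CLP, as the gate requires, but 5.02 and 6.55 in ProB. Ebf1, a transcription factor of early B cells, read 5.24 and 6.55 in Ly6D- CLP and 10.90 to 13.58 on all other arrays. The PreB arrays and Ly6D- CLP array 2 also held granulocyte transcripts. The mean of 8 granulocyte genes was 8.24 and 8.70 in PreB and 8.28 on Ly6D- CLP array 2, against 4.14 on Ly6D- CLP array 1 and 2.72 to 5.72 on the other arrays. Xist, the X-inactivation transcript of female cells, read 10.71 to 13.16 on the Pax5KO arrays, WT engrafted array 3 and both ProB arrays, and 2.33 to 2.73 on the other 8 arrays. Xist therefore moves with the step from Ly6D+ CLP to ProB, and sex and stage cannot be told apart in that step.

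Promoter sequences are shown for 6 of the genes, a pair for each of 3 patterns described further on: Sema3d and St8sia1 for the genes on in both CLP groups only, Rskr and Nhsl1 for the genes read in Ly6D+ CLP, and Ptger2 and Mpeg1 for the genes higher in Pax5KO engrafted cells. They come from RefSeq (build GRCm38.p6), which held promoters for 7 of the 9 genes, and each runs from 250 bases before to 50 bases after a start site. Capitals mark the letters searched on both strands: TGTGGT (bound by RUNX factors), GAGGAA (ETS factors) and the E-box letters CAGCTG and CAGGTG (E proteins). Sema3d lies at chr5:12382916-12383215 (plus strand), St8sia1 at chr6:142964403-142964702 (minus strand), Rskr at chr11:78290591-78290890 (plus strand), Nhsl1 at chr10:18469731-18470030 (plus strand), Ptger2 at chr14:44987861-44988160 (plus strand) and Mpeg1 at chr19:12460520-12460819 (plus strand).
Sema3d: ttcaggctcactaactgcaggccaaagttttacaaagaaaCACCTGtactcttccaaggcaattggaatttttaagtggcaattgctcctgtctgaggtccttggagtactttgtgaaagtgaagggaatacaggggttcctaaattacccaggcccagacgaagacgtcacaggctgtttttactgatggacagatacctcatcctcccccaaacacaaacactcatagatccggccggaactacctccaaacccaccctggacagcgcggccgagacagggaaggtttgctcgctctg
St8sia1: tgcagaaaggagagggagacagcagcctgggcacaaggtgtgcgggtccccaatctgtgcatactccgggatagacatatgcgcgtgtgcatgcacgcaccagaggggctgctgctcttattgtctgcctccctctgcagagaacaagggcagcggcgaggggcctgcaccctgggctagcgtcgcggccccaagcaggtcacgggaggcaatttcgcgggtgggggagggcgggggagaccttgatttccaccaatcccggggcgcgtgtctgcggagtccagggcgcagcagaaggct
Rskr: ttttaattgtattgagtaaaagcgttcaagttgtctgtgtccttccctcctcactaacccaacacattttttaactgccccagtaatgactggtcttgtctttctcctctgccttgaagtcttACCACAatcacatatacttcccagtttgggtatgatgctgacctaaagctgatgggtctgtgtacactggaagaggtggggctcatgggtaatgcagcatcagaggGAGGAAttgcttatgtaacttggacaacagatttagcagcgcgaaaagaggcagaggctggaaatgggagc
Nhsl1: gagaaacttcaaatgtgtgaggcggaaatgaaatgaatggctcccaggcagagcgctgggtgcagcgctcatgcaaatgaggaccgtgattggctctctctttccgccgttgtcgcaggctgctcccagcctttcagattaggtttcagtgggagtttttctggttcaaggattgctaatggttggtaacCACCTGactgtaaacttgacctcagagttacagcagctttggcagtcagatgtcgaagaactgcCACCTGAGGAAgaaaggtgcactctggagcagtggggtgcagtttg
Ptger2: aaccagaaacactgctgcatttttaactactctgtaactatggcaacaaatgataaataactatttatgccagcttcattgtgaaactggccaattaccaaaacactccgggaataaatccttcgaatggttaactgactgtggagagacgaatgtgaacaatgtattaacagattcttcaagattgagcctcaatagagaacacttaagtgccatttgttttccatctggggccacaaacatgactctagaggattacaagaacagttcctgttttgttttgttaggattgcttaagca
Mpeg1: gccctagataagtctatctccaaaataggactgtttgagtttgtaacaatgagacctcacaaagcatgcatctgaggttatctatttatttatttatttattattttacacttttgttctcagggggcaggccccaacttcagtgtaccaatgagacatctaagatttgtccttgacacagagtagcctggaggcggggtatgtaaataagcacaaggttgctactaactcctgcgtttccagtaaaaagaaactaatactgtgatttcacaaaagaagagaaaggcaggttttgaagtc

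The Sema3d promoter held 1 CAGGTG match, the Rskr promoter held 1 TGTGGT and 1 GAGGAA match, and the Nhsl1 promoter printed, the second of its 2 start sites, held 2 CAGGTG matches and 1 GAGGAA match. The first Nhsl1 start site, at chr10:18407425-18407724 (plus strand), held none of these letters. The Ptger2, Mpeg1 and St8sia1 promoters held none of these letters. Of 32851 mouse promoters of the same length, 16.8% held TGTGGT, 28.3% GAGGAA, 16.3% CAGCTG and 20.2% CAGGTG, so each match is common. The St8sia1 window was rich in G and C (64.7%), while those of Ptger2 (37.7%) and Mpeg1 (39.0%) were not.

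Across the 6 groups the genes fell into 5 patterns, which the plot of the arrays shows. Pdgfrb, Sema3d, St8sia1 and Gm4047 were on in both CLP groups and read close to the floor in every other group. Ptger2 was on in both CLP groups and at an intermediate level in Pax5KO engrafted cells. Mpeg1 was high in CLP, Pax5KO engrafted and PreB cells, and lower but above the floor in WT engrafted cells (4.61 to 5.76) and ProB (2.82 to 3.95). Rskr and Nhsl1 were read above the floor in Ly6D+ CLP at a low level. Gfra2 was low in Ly6D- CLP and high in every other group, ProB included. By the floor rule, 7 of the 9 genes were above the floor in Ly6D+ CLP and at the floor in ProB, which 1.21% of all genes were; since these groups chose the genes, nothing is read from that count. Of the 7, 5 were already above the floor in Ly6D- CLP (0.616% of all genes), and Rskr alone was at the floor in each of the other 5 groups (0.0715% of all genes). Ptger2 alone of the 5 was also above the floor in Pax5KO cells (0.269% of all genes). Over all genes, 220 had the pattern of the 7. Of those 220, 112 were above the floor in Ly6D- CLP and 13 were at the floor in the other 5 groups. Of the 112, 49 were above the floor in Pax5KO cells. These steps are thus common among such genes, apart from that of Rskr. Of the 22 probe sets, 6 were at the floor in all 6 groups.

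**Figure D1:**
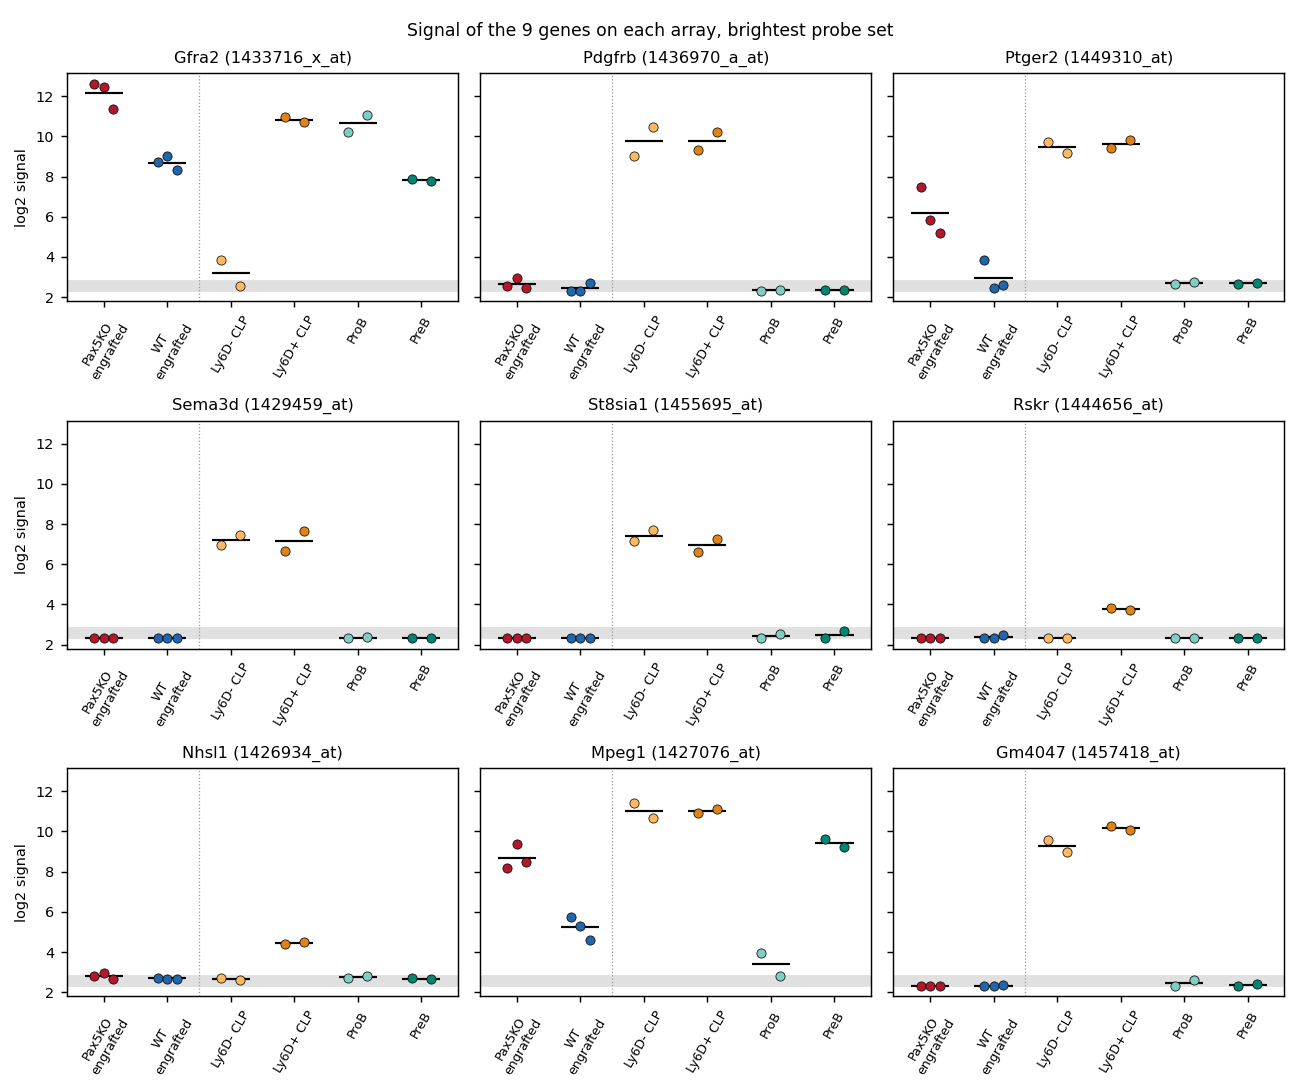
Log2 signal (y axis) of the brightest probe set of each of the 9 genes on every array (points, coloured by group), with the group mean as a line and the floor as a grey band; a dotted line parts the engrafted groups from the stages without transplant. Pdgfrb, Sema3d, St8sia1 and Gm4047 stand out of the band in the CLP groups and lie in or near it elsewhere, Ptger2 and Mpeg1 are higher in Pax5KO than in WT engrafted cells, and Gfra2 is low in Ly6D- CLP and high in ProB.

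Pdgfrb encodes the beta receptor for platelet-derived growth factor, a tyrosine kinase known mainly from pericytes and other mesenchymal cells. Its brighter probe set read 2.53, 2.95 and 2.44 on the Pax5KO arrays, and 2.32, 2.32 and 2.72 on the WT engrafted arrays. Along the stages it read 9.03 and 10.47 on the arrays of Ly6D- CLP and 9.31 and 10.22 on those of Ly6D+ CLP, then 2.32 and 2.34 for ProB and 2.33 and 2.36 for PreB. Both CLP groups were thus high and overlapped each other, and no array of another group passed 2.95. The dimmer probe set had the same order: 3.24 and 5.23 for Ly6D- CLP, 4.32 and 6.48 for Ly6D+ CLP, and 2.32 on each of the other 10 arrays. Other mesenchymal genes were near the floor in the same cells. Of 12 stromal and pericyte genes, 11 were at the floor in each CLP group, and the mean of the 12 lay between 2.37 and 2.55 on the 4 CLP arrays, against 2.33 to 2.71 on the others. Pdgfra, Col1a1, Rgs5 and Cspg4 had group means of at most 2.83 in the CLP groups, and the gene not at the floor in Ly6D- CLP was Vcam1 at 3.97.

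Ptger2 encodes a receptor for prostaglandin E2 that raises cyclic AMP. Its 1 probe set read 7.47, 5.86 and 5.19 on the Pax5KO arrays, and 3.86, 2.46 and 2.60 on the WT engrafted arrays. Among the stages it read 9.75 and 9.18 on the Ly6D- CLP arrays and 9.40 and 9.82 on those of Ly6D+ CLP, with ProB at 2.67 and 2.75 and PreB at 2.67 and 2.70. The engrafted groups did not overlap, and the Pax5KO arrays lay between the CLP arrays and the ProB arrays.

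Gfra2 encodes the receptor subunit that binds neurturin, a factor of the GDNF family. Its brightest probe set read 12.63, 12.44 and 11.36 on the Pax5KO arrays, and 8.72, 9.04 and 8.32 on the WT engrafted arrays. Among the stages it read 3.87 and 2.55 on the arrays of Ly6D- CLP and 10.97 and 10.71 on those of Ly6D+ CLP, then 10.24 and 11.05 for ProB and 7.90 and 7.79 for PreB. ProB and Ly6D+ CLP overlapped, so this probe set was not shut in ProB. The second brightest was likewise highest in Pax5KO cells and lowest in Ly6D- CLP, with means of 9.06 in Pax5KO and 5.53 in WT engrafted cells. Both of these have names ending in _x_at, which Affymetrix gives to sets with probes that also match other transcripts, and the platform annotation lists no accession for either. The other 3 probe sets of Gfra2 never passed 4.52. Of these, the one brightest in Pax5KO cells read 3.63, 3.68 and 4.52 on the Pax5KO arrays, 2.40 on each WT engrafted array, and 3.15 on 1 ProB array. Which transcript the bright sets read was not tested.

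**Figure D2:**
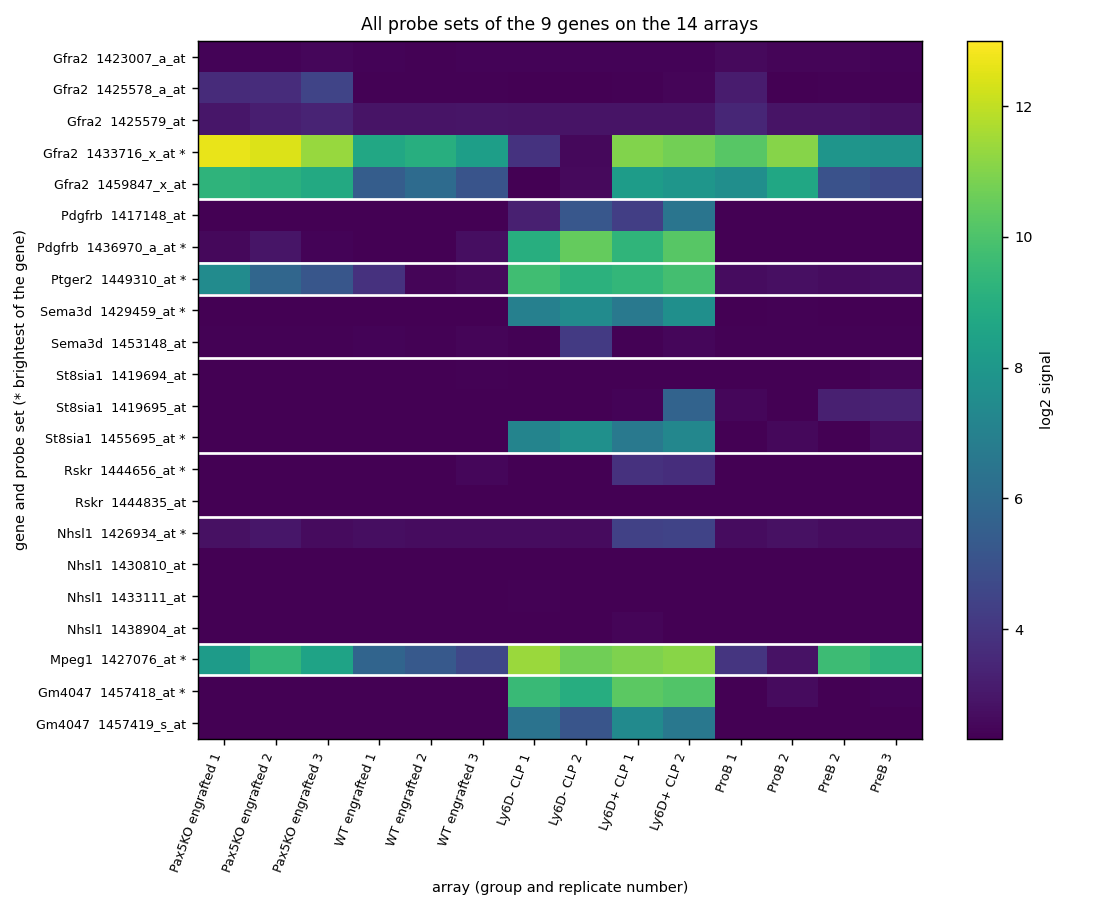
Log2 signal (colour) of all 22 probe sets of the 9 genes (rows, by gene, the brightest of each gene starred) on the 14 arrays (columns, by group and replicate number). Both probe sets of Pdgfrb and of Gm4047 are bright in CLP, 2 of the 5 Gfra2 sets carry nearly all of its signal, and Nhsl1 and Rskr are each seen by 1 probe set.

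Sema3d encodes a secreted class 3 semaphorin, a guidance cue read by neuropilin and plexin receptors. Its brighter probe set was at 2.32 on all 6 engrafted arrays. The CLP signals were 6.98 and 7.46 for Ly6D- CLP and 6.66 and 7.65 for Ly6D+ CLP, while ProB gave 2.32 and 2.36 and PreB 2.32 on both arrays. The CLP groups overlapped and no other array left the floor. The second probe set passed the floor on Ly6D- CLP array 2 alone, at 4.12.

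St8sia1 encodes GD3 synthase, the sialyltransferase that makes the ganglioside GD3 from GM3. Its brightest probe set was at 2.32 on all 6 engrafted arrays. It read 7.14 and 7.69 on the Ly6D- CLP arrays and 6.63 and 7.26 on those of Ly6D+ CLP, with ProB at 2.32 and 2.55 and PreB at 2.32 and 2.66. Here too the CLP groups overlapped and stood clear of the rest. The other probe sets differed from it. The second passed the floor on Ly6D+ CLP array 2 at 5.70 and in PreB at 3.27 and 3.36, and the last stayed at the floor on all arrays.

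Gm4047 is annotated as a long non-coding RNA. Its brighter probe set stayed between 2.32 and 2.33 on the 6 engrafted arrays. It read 9.58 and 8.97 on the arrays of Ly6D- CLP and 10.29 and 10.09 on those of Ly6D+ CLP, then 2.33 and 2.62 for ProB and 2.32 and 2.41 for PreB. Both Ly6D+ arrays lay above both Ly6D- arrays, by 0.91 between the means. The second probe set, of the _s_at kind that can read several related transcripts, gave 6.38 and 5.15 for Ly6D- CLP, 7.41 and 6.59 for Ly6D+ CLP, and 2.34 on the other 10 arrays. Gm4047 and Sema3d both lie on chromosome 5 with 31 annotated genes between them, 3 of them protein coding. None of the 31 had a probe set with a single symbol on this array.

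Rskr, a kinase related to the ribosomal S6 kinases, was dim. One of its 2 probe sets read 3.84 and 3.73 in Ly6D+ CLP and between 2.33 and 2.50 on the other 12 arrays, and the second stayed at the floor throughout. Nhsl1 belongs to the Nance-Horan family of proteins that act on the actin cytoskeleton. One of its 4 probe sets read 4.40 and 4.47 in Ly6D+ CLP, against 2.81, 2.98 and 2.65 on the Pax5KO arrays, 2.72, 2.67 and 2.67 on the WT engrafted arrays, and for Ly6D- CLP 2.69 and 2.62, for ProB 2.69 and 2.78 and for PreB 2.69 and 2.67. Its other 3 probe sets stayed at the floor. These are the 2 genes read in Ly6D+ CLP and not in Ly6D- CLP or later, by 1.44 for Rskr and 1.78 for Nhsl1 between the means of Ly6D+ and Ly6D- CLP, and each rests on 1 probe set at a low signal.

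Mpeg1 encodes perforin-2, a pore-forming protein that kills engulfed bacteria and is abundant in macrophages. Its 1 probe set read 8.16, 9.40 and 8.50 on the Pax5KO arrays, and 5.76, 5.30 and 4.61 on the WT engrafted arrays. Among the stages it read 11.41 and 10.68 on the Ly6D- CLP arrays and 10.94 and 11.09 on those of Ly6D+ CLP, with ProB at 3.95 and 2.82 and PreB at 9.64 and 9.21. It was therefore low in ProB only among the stages, with a mean 6.04 higher in PreB. The monocyte and macrophage markers moved in part with it. The mean of 9 such genes was 5.83 and 6.01 in PreB, against 3.98 and 4.04 in ProB. It was 4.57 to 5.04 in the CLP groups, and 4.19 to 4.68 in Pax5KO against 3.95 to 4.42 in WT engrafted cells. The mean of 8 dendritic cell genes was 4.92 to 5.45 in Pax5KO against 4.78 to 4.89 in WT engrafted cells, and 6.10 to 6.23 in PreB against 4.64 to 4.74 in ProB. Of the 9 monocyte genes, 2 were at the floor in PreB, 4 in ProB, and 3 in each engrafted group. The granulocyte transcripts given above were also high on both PreB arrays. The part of such cells in the Mpeg1 signal was not tested.

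The engrafted groups were compared to ask which of these genes stay on without Pax5. The stated choice used neither group, though the genes were chosen with earlier results of these data known. Gfra2, Ptger2 and Mpeg1 were higher in Pax5KO cells and the other 6 genes were not called. The 3 calls of 9 stand beside 5.94% of all genes called in this comparison, 3.64% higher and 2.29% lower in Pax5KO cells. Mpeg1 averaged 8.69 ± 0.64 in Pax5KO and 5.22 ± 0.58 in WT engrafted cells (SD, n = 3 each) and rose by 3.46 (SE 0.44, limma adjusted p = 0.0022). Ptger2 averaged 6.17 ± 1.17 in Pax5KO and 2.98 ± 0.77 in WT engrafted cells (SD, n = 3 each) and rose by 3.20 (SE 0.57, limma adjusted p = 0.0124). Gfra2 averaged 12.14 ± 0.69 in Pax5KO and 8.69 ± 0.36 in WT engrafted cells (SD, n = 3 each) and rose by 3.45 (SE 0.44, limma adjusted p = 0.00211).

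Markers of CLP moved in part with these genes. Of 8 CLP marker genes, 4 were called higher in Pax5KO cells and none lower. Of those not called, Ly6d (-1.05) and Rag2 (-0.84) read lower, and Il7r (0.52) and Rag1 (0.33) read higher. The mean of the 8 was 9.65 to 10.74 on the Pax5KO arrays, against 8.10 to 9.08 on the WT engrafted arrays. Flt3, 1 of the 8, read 8.74 to 9.98 on the Pax5KO arrays, against 3.39 to 3.66 on the WT engrafted arrays. Lists of other cells moved too, each by few called genes. The mean of 8 NK and innate lymphoid genes was 3.51 to 3.73 on the Pax5KO arrays, against 2.79 to 3.12 on the WT engrafted arrays, with Klrd1 (3.33) and Id2 (1.85) called higher. Of these 8, 5 were at the floor in Pax5KO cells. The mean of 6 T lineage genes was 3.38 to 3.64 on the Pax5KO arrays, against 2.74 to 3.05 on the WT engrafted arrays, with Lat (2.75) called higher. Of these 6, 4 were at the floor in Pax5KO cells. Klrd1, Id2 and Lat were also on in Ly6D+ CLP, at 7.26, 8.90 and 6.63, and which cells held them was not tested. Lyz2, a monocyte and granulocyte gene, rose by 2.52 and was the only gene called of 9 monocyte and macrophage genes. It too was on in Ly6D+ CLP, at 8.34. Of 8 granulocyte genes none was called, with a median difference of -0.70. Of 9 pro-B and pre-B genes, Cd79a (-3.10) and Cd79b (-1.26) were called lower in Pax5KO cells and none higher. Of 8 dendritic cell genes, Bst2 (1.35) was called higher and Irf8 (-1.67) lower. The part of these markers in the result was not tested.

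For Gfra2, Ptger2 and Mpeg1, all 3 Pax5KO arrays lay above all 3 WT engrafted arrays. The share of all genes with such a gap was not counted, so nothing is read from it beyond the calls. The Gfra2 difference also held for 2 further probe sets when every probe set was tested (3.23% of them called): the second brightest differed by 3.53 (SE 0.32, limma adjusted p = 0.000591) and the dim set that read up to 4.52 in Pax5KO cells by 1.55 (SE 0.26, limma adjusted p = 0.0142). With its 5 probe sets averaged, Gfra2 rose by 1.78 (limma adjusted p = 8.89e-06). The Ptger2 call ended when the fit held the 6 engrafted arrays alone (limma adjusted p = 0.142) and with a term for high Xist (3.58, limma adjusted p = 0.0607). Against WT array 3 alone, the WT engrafted array with high Xist, the difference was as large (3.58), and its limma adjusted p of 0.0642 rests on 1 WT array, whose spread is taken from the other groups. Gfra2 and Mpeg1 were called in each of these fits.

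Pdgfrb and Nhsl1 were not called between the engrafted groups, with a difference of 0.18 for Pdgfrb (95% interval -0.65 to 1.02, limma adjusted p = 1) and of 0.13 for Nhsl1 (95% interval -0.03 to 0.29, limma adjusted p = 0.511). Sema3d, St8sia1, Rskr and Gm4047 were at the floor in both engrafted groups. Of the genes on in both CLP groups, Ptger2 in Pax5KO cells minus Ly6D+ CLP was thus -3.44 and Mpeg1 -2.33, while Pdgfrb, Sema3d, St8sia1 and Gm4047 were between -7.87 and -4.62; these differences were not tested, since that group chose the genes.

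**Figure D3:**
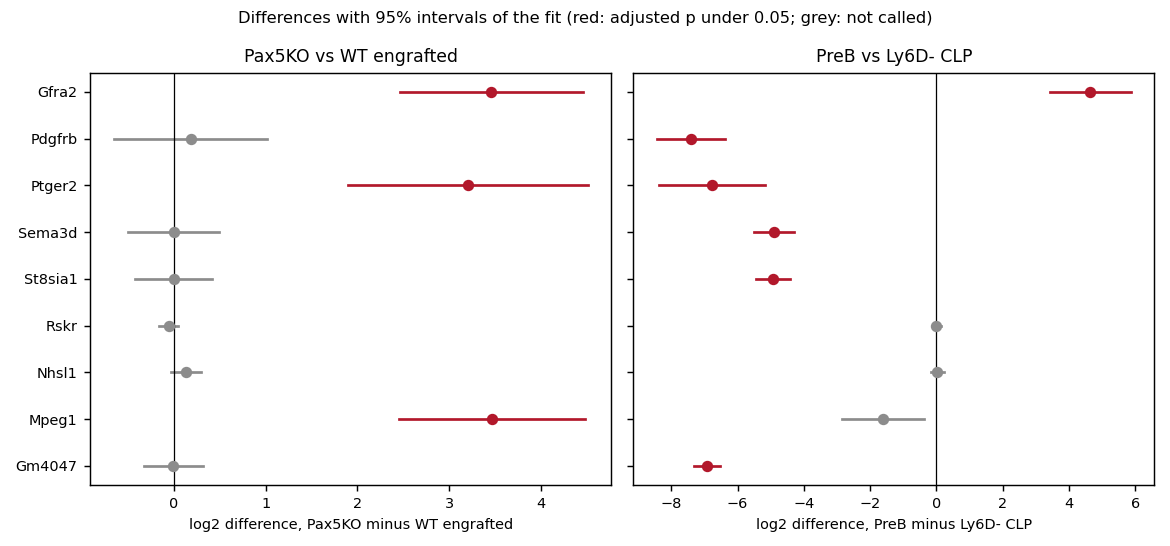
Log2 difference (point) with its 95% interval (line) for the 9 genes, as Pax5KO minus WT engrafted (left) and PreB minus Ly6D- CLP (right); red marks a limma adjusted p under 0.05 and grey the rest. Ptger2, Mpeg1 and Gfra2 lie right of 0 in the left panel, and Pdgfrb, Ptger2, Sema3d, St8sia1 and Gm4047 lie far left of 0 in the right panel.

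PreB cells were compared with Ly6D- CLP to ask which genes already stand above a later B lineage stage before Ly6D is gained. The stated choice used neither group, and both are low in Xist. Gfra2 was not low in ProB as that choice states, and the genes were chosen with earlier results of these data known. Whether the Ly6D- CLP values had a part in the choice is thus not known, for Gfra2 above all. Pdgfrb, Ptger2, Sema3d, St8sia1 and Gm4047 were lower in PreB and Gfra2 was higher. These 6 calls of 9 stand beside 16.1% of all genes called, 9.32% lower and 6.73% higher in PreB. The 5 genes that fell were at the floor in PreB, so their differences are lower bounds.

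Pdgfrb fell by 7.41 (SE 0.45, limma adjusted p = 1.62e-05), to 2.35 ± 0.02 in PreB, against 9.75 ± 1.02 in Ly6D- CLP (SD, n = 2 each). Gm4047 fell by 6.91 (SE 0.17), to 2.37 ± 0.06 in PreB, against 9.28 ± 0.43 in Ly6D- CLP. Ptger2 fell by 6.78 (SE 0.70), to 2.68 ± 0.02 in PreB, against 9.46 ± 0.40 in Ly6D- CLP. In these 3 genes no PreB array came within 6 units of a Ly6D- CLP array. St8sia1 fell by 4.92 (SE 0.22) and Sema3d by 4.90 (SE 0.27), with limma adjusted p from 8.03e-08 to 0.000334 over Gm4047, Ptger2, St8sia1 and Sema3d. Gfra2 rose by 4.64 (SE 0.53, limma adjusted p = 0.000599), to 7.84 ± 0.08 in PreB, against 3.21 ± 0.93 in Ly6D- CLP. When every probe set was tested, 10.9% were called, among them the dimmer set of Gm4047 (-3.43). The second sets of Pdgfrb (-1.91, limma adjusted p = 0.157) and Sema3d (-0.87, limma adjusted p = 0.291) were not called, nor was the second set of St8sia1, which differed the other way (0.99, limma adjusted p = 0.567). Where the probe sets of a gene were averaged, which brings in sets at the floor, the differences shrank to -4.66 for Pdgfrb, -2.88 for Sema3d, -1.29 for St8sia1 and 1.42 for Gfra2 and stayed called (limma adjusted p between 4.55e-05 and 0.0251).

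Mpeg1 was not called between PreB and Ly6D- CLP (-1.62, SE 0.54, limma adjusted p = 0.0839), although its groups did not overlap. It was called without dim genes (limma adjusted p = 0.031) and without genes at the floor in all groups (0.0377). Over its 14 alternatives the limma adjusted p ran up to 0.422. Nhsl1 and Rskr were at the floor in both groups. The granulocyte list stood apart within this comparison, at 8.24 and 8.70 in PreB, against 4.14 and 8.28 in Ly6D- CLP, and its part in these differences was not tested. In each fit that leaves a group with 1 array, that array is assumed to vary like the other groups. The NK and innate lymphoid list stood apart too, with a mean of 8 genes of 5.16 and 5.29 in PreB, against 3.68 and 3.80 in Ly6D- CLP, and 3 of them rose in PreB: Eomes by 6.49, Id2 by 3.87 and Tbx21 by 0.68. The 9 monocyte genes averaged 5.83 and 6.01 in PreB, against 5.04 and 5.01 in Ly6D- CLP, and 3 of them rose, Cd14 most, by 3.93. Their part in these differences was not tested either.

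The relatives of the genes were read from lists by receptor, pathway and complex. Among 14 measured prostanoid receptors and enzymes of prostaglandin E2 synthesis, Ptger2 and Tbxa2r were higher and Ptger4 was lower in Pax5KO than in WT engrafted cells. Tbxa2r, the thromboxane receptor, averaged 8.90 ± 0.47 in Pax5KO and 4.86 ± 0.21 in WT engrafted cells (SD, n = 3 each) and rose by 4.04 (SE 0.29, limma adjusted p = 9.31e-05). Ptger4, a second prostaglandin E2 receptor that raises cyclic AMP, averaged 8.10 ± 0.48 in Pax5KO and 10.04 ± 0.56 in WT engrafted cells, a difference of -1.94 (SE 0.42, limma adjusted p = 0.0302). Ptger4 was no longer called once Pax5KO array 2 (limma adjusted p = 0.115), Pax5KO array 3 (0.0898), WT array 1 (0.113) or WT array 2 (0.104) was left out. With a term for high Xist it differed by -1.31 (0.363), and with its probe sets averaged by -1.26 (0.0794).

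Between PreB and Ly6D- CLP the same list had Ptger2, Ptger3 and Tbxa2r lower and Ptger4 higher in PreB. Ptger3, a prostaglandin E2 receptor that lowers cyclic AMP, averaged 3.21 ± 0.38 in PreB and 9.66 ± 0.24 in Ly6D- CLP (SD, n = 2 each) and fell by 6.45 (SE 1.11, limma adjusted p = 0.00472). It read 2.69 and 6.38 in Ly6D+ CLP, where Ptger2 stayed at 9.40 and 9.82. Tbxa2r fell by 4.35 (SE 0.36) and Ptger4 rose by 2.57 (SE 0.52, limma adjusted p = 0.00995). With its probe sets averaged Ptger3 differed by -3.28 (limma adjusted p = 0.00409). A fit of the arrays without transplant alone ended the calls of Ptger3 (limma adjusted p = 0.0501) and Ptger4 (0.0534).

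Of 12 measured genes of ganglioside synthesis, 4 were lower in PreB than in Ly6D- CLP and none was higher, beside 9.32% lower and 6.73% higher over all genes. They were St8sia1, B4galt6, St3gal2 and B4galnt1. The list was drawn up around St8sia1, so the count holds a gene that was chosen beforehand. B4galt6, an enzyme that makes the lactosylceramide that gangliosides are built on, fell by 3.73 (SE 0.37, limma adjusted p = 0.000277), to 2.41 in PreB, against 6.14 ± 0.80 in Ly6D- CLP, and read 5.42 and 6.42 in Ly6D+ CLP. B4galt5, of the same family and list, was not called, at 5.37 ± 0.24 in PreB and 6.21 ± 0.95 in Ly6D- CLP. With probe sets averaged the differences were -1.49 for B4galt6 and -1.44 for B4galnt1, both still called. St3gal2, a sialyltransferase acting late in the pathway, fell by 3.63 (SE 0.31) and B4galnt1, which makes GM2 and GD2, fell by 2.88 (SE 0.73, limma adjusted p = 0.0286). The B4galnt1 call ended without Ly6D- CLP array 2 (limma adjusted p = 0.136), without PreB array 2 (0.167) and with the replicate block (0.0575). St3gal5, the GM3 synthase that supplies the substrate of St8sia1, was not called, at 5.79 ± 0.28 in PreB and 4.30 ± 1.13 in Ly6D- CLP. Between the engrafted groups St3gal2 rose by 2.05 (SE 0.25, limma adjusted p = 0.00181) in Pax5KO cells and no other of the 12 was called. With probe sets averaged St3gal2 rose by 1.27 (limma adjusted p = 0.0219) and B4galnt1 was called as well (1.09, limma adjusted p = 0.0354).

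**Figure D4:**
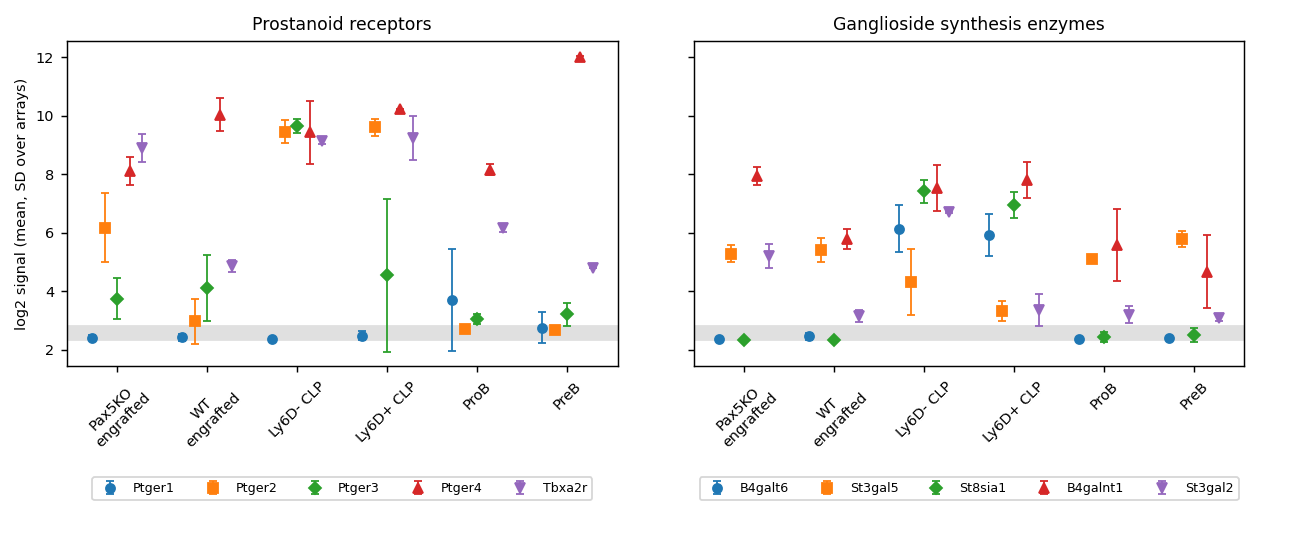
Log2 signal (y axis, group mean with the SD over arrays as bars) of 5 prostanoid receptors (left) and 5 enzymes of ganglioside synthesis (right) in the 6 groups, with the floor as a grey band. Ptger2 is high in both CLP groups and Ptger3 most in Ly6D- CLP, while St8sia1 and B4galt6 share their rise out of the band in the CLP groups.

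The other lists held few calls. Of 7 PDGF receptors and ligands none was called between the engrafted groups, and Pdgfrb and Pdgfa, a ligand, were lower in PreB than in Ly6D- CLP. Pdgfa fell by 1.09 (SE 0.24, limma adjusted p = 0.0157), a call that ended without Ly6D- CLP array 2 (0.0777) and without PreB array 2 (0.0656) or 3 (0.068). Of 10 GDNF receptors and ligands, Ret, the kinase that signals for Gfra2, was at the floor in Pax5KO cells and averaged 3.82 ± 0.29 in WT engrafted cells (SD, n = 3). It fell by 1.43 (SE 0.25, limma adjusted p = 0.0102; -0.72 with its probe sets averaged, and -1.11 with an adjusted p of 0.145 with a term for high Xist), opposite in direction to Gfra2. Ret was also at the floor in Ly6D- CLP, Ly6D+ CLP and ProB and rose by 2.94 in PreB over Ly6D- CLP (SE 0.30, limma adjusted p = 0.000316; 1.47 with its probe sets averaged).

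Of 14 class 3 semaphorins and receptors, Sema3g rose by 3.04 (SE 0.64, limma adjusted p = 0.0255) in Pax5KO cells, to 6.69 ± 0.05, against 3.65 ± 0.77 in WT engrafted cells (SD, n = 3 each). Its call ended when any 1 of the 6 engrafted arrays other than WT array 3 was left out (limma adjusted p 0.0607 to 0.0959) with the replicate block (0.0597) and with a term for high Xist (2.48, 0.269). Between PreB and Ly6D- CLP, Sema3d was lower in PreB as given above, and the receptors Nrp1 (1.65, limma adjusted p = 0.00755) and Plxna4 (0.95, limma adjusted p = 0.000242; 0.48 averaged over its probe sets) were higher. The Nrp1 difference was 0.11 with its probe sets averaged (limma adjusted p = 0.878), and its adjusted p was 0.05 without PreB array 2. Of 12 genes of the Nance-Horan family and the WAVE actin complex, none was called between the engrafted groups. In PreB, Abi1 was higher than in Ly6D- CLP (2.74, limma adjusted p = 0.0065) and Nckap1l lower (-0.80, limma adjusted p = 0.0496; 0.239 without Ly6D- CLP array 1, 0.194 without PreB array 2, 0.121 without PreB array 3 and 0.154 with probe sets averaged). Of 11 pore-forming proteins Mpeg1 alone was called, between the engrafted groups, and of 7 ribosomal S6 kinases and 3 polysialyltransferases none was called in either comparison. Over all 18193 genes the median difference was 0.00 in both comparisons, and over the 9 genes it was 0.13 and -4.90. Since the 9 were chosen as high in Ly6D+ CLP and low in ProB, nothing is read from their medians.

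The genes with the most similar profile over the 14 arrays were ranked among 8713 genes whose highest group mean was at least 5, by Pearson's r. These are descriptions over arrays that share their cell types. Sema3d was closest to St8sia1 (0.997) and Pdgfrb (0.997), Pdgfrb to Sema3d and St8sia1 (0.995), and Gm4047 to Sema3d (0.989) and Pdgfrb (0.987). St8sia1 was also close to Cd34 (0.995), a surface protein of progenitors, which averaged 11.81 in Ly6D- CLP, 10.07 in Ly6D+ CLP and 2.32 in ProB. Ptger2 was closest to Cd27 (0.978), a receptor of the TNF receptor family that averaged 6.65 in Pax5KO and 2.67 in WT engrafted cells, and to Tspan3 (0.976), a tetraspanin. Rskr and Nhsl1 shared Mst1r (0.968 and 0.969), a receptor tyrosine kinase that averaged 6.37 in Ly6D+ CLP and at most 2.92 in the other groups, and Cpne2 (0.929 and 0.911), a copine. Mpeg1 was closest to Ctla2b (0.944) and to Satb1 (0.936), a chromatin organizer of lymphoid cells. Gfra2 was closest to Riox2 (0.938) and to Igll1 (0.926), the gene of λ5, which averaged 4.32 in Ly6D- CLP, 12.39 in Ly6D+ CLP and 13.20 in ProB.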

How the data were processed

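The deposited table holds log2 signals of 45101 probe sets on 14 Affymetrix arrays, already on a common scale by the authors; RMA, GCRMA and limma are named in the submitters' processing notes, and which of RMA and GCRMA made these values is not given in the sources used here. No scanner intensities were used. The 64 control probe sets were left out. Of the rest, 34945 carried 1 gene symbol in the platform annotation, 932 several and 9160 none; 34741 matched a RefSeq gene, and each of the 18193 genes was read from its probe set with the highest mean. Array medians lay between 2.41 and 2.52, and 56.0% to 57.8% of probe sets lay within 0.5 of the floor, which limits what low signals can show. The number of arrays limits the precision.

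Differences were fitted with limma 3.58.1 in R 4.3.3 on the 6 group means over all 14 arrays (8 residual degrees of freedom) and p-values adjusted by Benjamini-Hochberg over 18193 genes, with a threshold of 0.05. The fit was tested on simulated data. The titles call the arrays biological replicates, but nothing states separate animals for each, so p-values measure the spread between these arrays. Deviations from the group means correlated at 0.130, 0.303 and 0.543 between same-numbered Pax5KO and WT engrafted arrays. Between unlike numbers the correlations ran from -0.489 to 0.390. Pax5KO array 1 was closer to WT array 2 (0.390) than to WT array 1 (0.130). Whether the arrays are paired by number is thus not settled, and the main fit holds no pairing. The numbers here and in the replicate block are those of the sample descriptions, in which PreB arrays 2 and 3 are numbered 1 and 2. By these, same-numbered PreB and Ly6D- CLP arrays correlated at 0.030 and unlike numbers at -0.030. Alternatives changed the arrays in the fit, the probe set rule, the filter on dim genes (log2 4), scaling, weights, moderation, the block, a term for Xist above log2 7, and left out each array. The genes named were the 9 members, every called gene of the family lists, and for each member the 2 genes of highest Pearson correlation; Flt3, Ebf1, St3gal5, Ptger3 in Ly6D+ CLP and the stromal genes were added after their values were seen. The members and lists were chosen with earlier results of these data known.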

Additional observations from a re-analysis of the deposited data

How the results depend on the processing

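Of 676 recomputed values of single genes, 618 kept their direction and side of the threshold, 49 lost their call, 9 gained one and 0 reversed. Of 65 recomputed counts, 57 stayed within 1.5 times. Genes called between Pax5KO and WT engrafted cells numbered 1080, against 697 with only the engrafted arrays, 3065 with array weights and 676 to 1034 with 1 array left out. The split of 663 higher and 417 lower turned to 339 and 527 with a term for high Xist, and to 303 and 490 against WT array 3 alone, a comparison chosen after seeing the data. Between PreB and Ly6D- CLP 2920 were called, against 1764 with only the arrays without transplant, 1727 with array weights, 4918 with every probe set tested and 2311 to 3111 with 1 array left out. With a floor width of 0.25, 4 of the 9 genes were above the floor in Ly6D+ CLP and at the floor in ProB, against 7. With the replicate block 1163 and 3097 genes were called, and no call of the 9 genes changed. It also called Abi1 between the engrafted groups (-0.99, limma adjusted p = 0.0117). The cause of these shifts was not tested. Rskr was removed by the filter on dim genes. Equal array medians shifted the median of all genes by -0.08 and 0.18. Signals near the floor limit Rskr and Nhsl1 most.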
